A study of Mus musculus with 4 samples.

Results

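Paneth cells store antimicrobial proteins in large granules and release them into the crypt lumen on demand. The genes described here serve that release and the fluid that flushes the products out of the crypt. They are the muscarinic receptor Chrm3, the potassium channel Kcnn4, the chloride channel Cftr, the cotransporter Slc12a2, the small GTPases Rab3d and Rab27a, and the membrane fusion proteins Vamp8, Stx3, Snap23 and Stxbp2. These 10 genes were chosen by function, with earlier results of these data known. Every probe set annotated to one of them was taken, which gave 27 of the 45101 probe sets on the array. For each gene the probe set with the highest mean signal over the 4 arrays stands first and is called the brightest.

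The cells were cut by laser capture from frozen small intestine of male NMRI mice aged 8 weeks. The germ-free group had no gut microbes until death, and the conventionalized group started life germ-free and then carried the microflora of a conventionally raised mouse for 10 days. RNA of 3 mice per group was pooled, and 2 aliquots of 10 ng per pool were amplified and hybridized, so each group holds 2 arrays that repeat the amplification of 1 pool. Errors and p-values below therefore measure amplification and array error, and the spread between mice is not in them.

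Acetylcholine from enteric nerves binds the M3 muscarinic receptor, which acts through Gq and phospholipase C to raise cytosolic calcium. Calcium triggers fusion of docked granules with the apical membrane, where a vesicle SNARE such as Vamp8 pairs with Stx3 and Snap23 under the control of the Sec1/Munc18 protein Stxbp2, and Rab3d and Rab27a mark and dock the granules. In parallel Slc12a2 loads the cell with chloride from the blood side, calcium-activated potassium channels such as Kcnn4 keep the cell electrically negative, and chloride leaves through Cftr with water following. In mouse Paneth cells Kcnn4 has been linked to granule release itself.

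The labelled cell type was checked against its markers. Of 23 Paneth markers, 15 had a probe set and 14 passed the signal filter, and those on the array summed to a signal of 87823 and 181161 for germ-free against 392774 and 911703 for conventionalized cells. Markers of other cell types were also measured. The summed signal of 14 goblet cell markers ranged from 59064 to 103451 in germ-free and from 139931 to 228053 in conventionalized samples. That of 20 enterocyte markers ranged from 118709 to 215670 and from 128371 to 285874. Such sums follow a few bright probe sets. On conventionalized replicate 2, Lyz1 read 249594 and Defa31 245509 among Paneth markers, Zg16 145448 among goblet markers and Fabp2 142558 among enterocyte markers. By gene, 15 of the 20 enterocyte markers were below 0 and 5 above, while their sums overlapped between the groups. Enteroendocrine cells, which also release granules on a signal, had 20 markers that summed to 7763 and 10074 against 6074 and 5417, and 9 plasma and B cell markers summed to 3128 and 2908 against 8726 and 11136. Of 10 mast cell markers, another cell type with regulated exocytosis, 1 passed the filter. Of 10 neuron and glia markers on the array 3 passed, and of 10 smooth muscle markers 7 passed. No marker was listed at 0. The germ-free pair was processed on fluidics station 1 and the conventionalized pair on station 2, so the effect of the station and that of the group cannot be told apart.

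Transcripts for every step, from receptor to fusion machinery, gave signals above the filter, and none of the 10 genes passed the test between conventionalized and germ-free cells. The filter asked for a 4-array mean signal above 113.9, which is where the median probe set lies, and is no detection call. All 10 brightest probe sets passed it, and 9 of the 17 others did. At the brightest probe set 0 of 10 genes were called in limma at an adjusted p under 0.05 and 0 had an unadjusted p under 0.05, where 0.355% of 12113 tested genes were called. Over all 19 tested probe sets of these genes 0 were called and 1 had an unadjusted p under 0.05. Across the array 0.333% of 22491 tested probe sets were called, 0.120% higher and 0.213% lower in conventionalized cells, and 5.13% had an unadjusted p under 0.05.

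Log2 differences of the 10 genes, conventionalized minus germ-free on the log2(signal + 32) scale, ran from -0.56 to 0.52. Their median was 0.14, beside a median of 0.00 over all tested genes, and 6 of 10 were above 0, beside 6059 of 12113 tested genes. No gene of the 10 differed by as much as a log2 of 1, which 11.3% of tested genes did. The groups did not overlap for 3 of the 10 genes. Kcnn4 and Stxbp2 were higher on both conventionalized arrays, where 15.9% of all tested genes were, and Vamp8 was lower on both, where 16.1% were, so these counts are near the background. Over all 27 probe sets 7 had groups without overlap, beside 31.1% of all probe sets on the array. In a captured cell population, fewer cells of a type and less RNA per cell cannot be told apart.

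**Figure D1:**
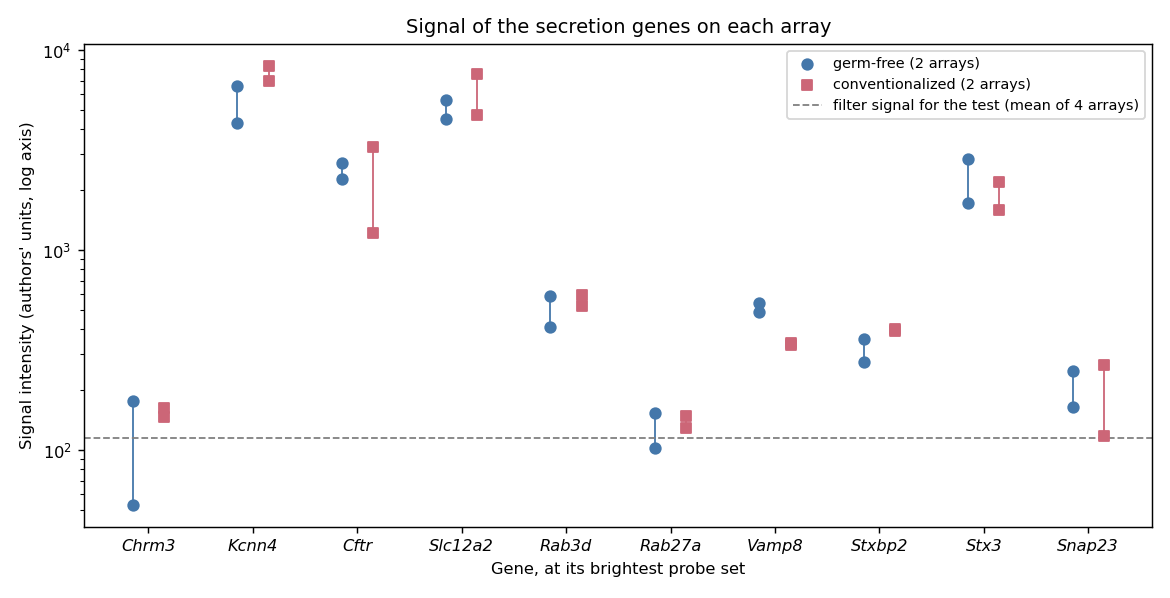
Signal intensity in the authors' units (log axis) of the 10 genes at their brightest probe sets; circles are the 2 germ-free arrays, squares the 2 conventionalized arrays, each pair joined by a line, and the dashed line is the filter signal of 113.9. Signals of different genes come from different probes and are not comparable with each other; within genes the pairs overlap except for Kcnn4, Vamp8 and Stxbp2.

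The stimulus end of the pathway was represented by Chrm3 (gene identifier 12671), the receptor through which cholinergic nerves drive gut secretion. Its single probe set read 175 and 53 on the germ-free arrays against 162 and 145 on the conventionalized arrays. One germ-free array, replicate 2, lay below the filter signal while the 3 other arrays were close to each other, and the groups overlapped. The log2 difference was 0.48 ± 0.91 (fitted SE, 2 arrays per group; limma adjusted p = 0.999), with a 95% interval from -1.29 to 2.26. Without germ-free replicate 2 it was -0.16. Smooth muscle also carries this receptor; the summed signal of its 10 markers was 6615 and 5885 in germ-free against 3499 and 5195 in conventionalized samples, and their part in the Chrm3 signal was not tested. A second Gq-coupled muscarinic receptor gene, Chrm1, read 436 and 157 in germ-free against 341 and 480 in conventionalized cells.

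Kcnn4 (16534), the intermediate-conductance calcium-activated potassium channel, read 4288 and 6558 on the germ-free arrays against 8309.5 and 6990.3 on the conventionalized arrays. Both conventionalized arrays lay above both germ-free arrays, and the nearest values across the groups were 6558 and 6990.3. The difference of 0.52 ± 0.51, or 1.43-fold, did not pass (limma adjusted p = 0.999), and its 95% interval ran from -0.47 to 1.51. A second Kcnn4 probe set was under the filter, at 40.2 and 20.4 against 28.8 and 114. The small-conductance relative Kcnn2 read 187 and 50.4 in germ-free against 234 and 292 in conventionalized cells, a difference of 1.13 ± 0.71 that did not pass, and Kcnn1 and Kcnn3 lay under the filter.

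Slc12a2 (20496), the basolateral sodium, potassium and chloride cotransporter that supplies chloride for secretion, had 3 probe sets, all tested. The brightest read 4521 and 5606 in germ-free against 7561 and 4749 in conventionalized cells. Conventionalized replicate 1 was the highest array and replicate 2 lay between the germ-free arrays. The difference was 0.25 ± 0.49 (limma adjusted p = 0.999), with a 95% interval from -0.71 to 1.21. The other 2 probe sets differed by 0.20 ± 0.49 and 0.30 ± 0.52, and Slc12a2 was the sole gene of the 5 with more than 1 tested probe set in which all of them had the same sign. Its relative Slc12a7, a potassium and chloride cotransporter, had a difference of -0.01 ± 0.42.

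Cftr (12638), the apical chloride channel opened by cyclic AMP signalling, read 2254.5 and 2709.6 on the germ-free arrays. On the conventionalized arrays it read 3256 and 1213.5, so its conventionalized aliquots lay on either side of the germ-free ones and 2.64-fold apart on the log2(signal + 32) scale. The difference of -0.31 ± 0.42 did not pass (limma adjusted p = 0.999; 95% interval -1.14 to 0.53). The sign rested on 1 array, being 0.39 without conventionalized replicate 2 and -1.01 without conventionalized replicate 1. Of the 10 genes, Cftr alone had conventionalized duplicates more than 2-fold apart on that scale at its brightest probe set, with Snap23 next at 1.99-fold, and Chrm3 alone had germ-free duplicates that far apart. Over all tested probe sets 29.9% of conventionalized and 21.1% of germ-free duplicates were more than 2-fold apart.

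Among the granule GTPases, Rab3d (19340), which coats mature secretory granules in many exocrine cells, read 411 and 585 in germ-free against 597 and 522.5 in conventionalized cells. The groups overlapped, and the difference was 0.18 ± 0.46 (limma adjusted p = 0.999; 95% interval -0.72 to 1.07). All 4 Rab3d probe sets passed the filter. The second brightest differed by -0.54 ± 0.50 and the remaining pair by 0.42 ± 0.51 and 0.13 ± 0.66, so the probe sets of this gene did not share a sign.

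Rab27a (11891), which ties granules to the cortical cytoskeleton and plasma membrane, lay close to the filter. Its brightest probe set read 153 and 101.5 in germ-free against 147.8 and 128.1 in conventionalized cells. The conventionalized values fell between the germ-free ones, and the difference was 0.11 ± 0.86 (limma adjusted p = 0.999; 95% interval -1.59 to 1.81). A second tested probe set read 209.7 and 140.2 against 123.5 and 51.3, a difference of -0.84 ± 0.94 at a probe set kept by its germ-free signal alone, and the other 2 of its 4 probe sets were under the filter. The related Rab27b read 243 and 174 in germ-free against 274 and 451 in conventionalized cells, a difference of 0.69 ± 0.55 that did not pass.

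Vamp8 (22320), the vesicle SNARE of zymogen and other secretory granules, had the closest duplicates in germ-free cells among the brightest probe sets of the 10 genes. It read 487 and 539 in germ-free against 333.5 and 343.7 in conventionalized cells. Both conventionalized arrays lay below both germ-free arrays, and the duplicates were 1.10-fold and 1.03-fold apart. The difference of -0.56 ± 0.48 is the lowest of the 10 and did not pass (limma adjusted p = 0.999; 95% interval -1.50 to 0.39). The fitted SE is shared by probe sets of like signal, so the closeness of the Vamp8 duplicates does not enter it. One probe set stood for Vamp8, so no second one could be set beside it.

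Stxbp2 (20911), also called Munc18-2, read 356 and 273 in germ-free against 401 and 390.3 in conventionalized cells at its brightest probe set. The conventionalized values lay above the germ-free ones, and the difference was 0.31 ± 0.50 (limma adjusted p = 0.999; 95% interval -0.67 to 1.30). Its second probe set gave the opposite sign, reading 442.5 and 392.8 against 337.7 and 52.8. That difference of -1.34 ± 0.57 was the one with an unadjusted p under 0.05 in limma (limma adjusted p = 0.732). It rested on conventionalized replicate 2, the array at 52.8: without that array the difference was -0.28, and without conventionalized replicate 1 it was -2.40 and passed (limma adjusted p = 0.0448). The dimmest of the 3 differed by -0.17 ± 0.63. Both of these carry the suffix _x_at, which marks probes that can bind other transcripts, and the mean over all 3 was -0.40.

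Stx3 (20908), the apical membrane syntaxin of polarized epithelia, read 1707 and 2858 in germ-free against 2189.7 and 1577.5 in conventionalized cells. The groups overlapped, and the difference was -0.25 ± 0.42 (limma adjusted p = 0.999; 95% interval -1.07 to 0.58). Its 3 other probe sets were under the filter and ranged from 5.2 to 182 over the arrays. Averaging all 4 gave 0.59, through 2 dim probe sets that differed by 1.32 and 1.46.

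Snap23 (20619), the plasma membrane SNARE that takes the place of neuronal Snap25 outside the nervous system, read 164 and 247 in germ-free against 117 and 264 in conventionalized cells. The 2 conventionalized arrays enclosed the germ-free ones, and the difference was -0.15 ± 0.65 (limma adjusted p = 0.999; 95% interval -1.44 to 1.13). A second tested probe set differed by 0.10 ± 0.70. Snap25 itself was under the filter, at 57.6 and 36.5 in germ-free against 66.2 and 169 in conventionalized cells.

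**Figure D2:**
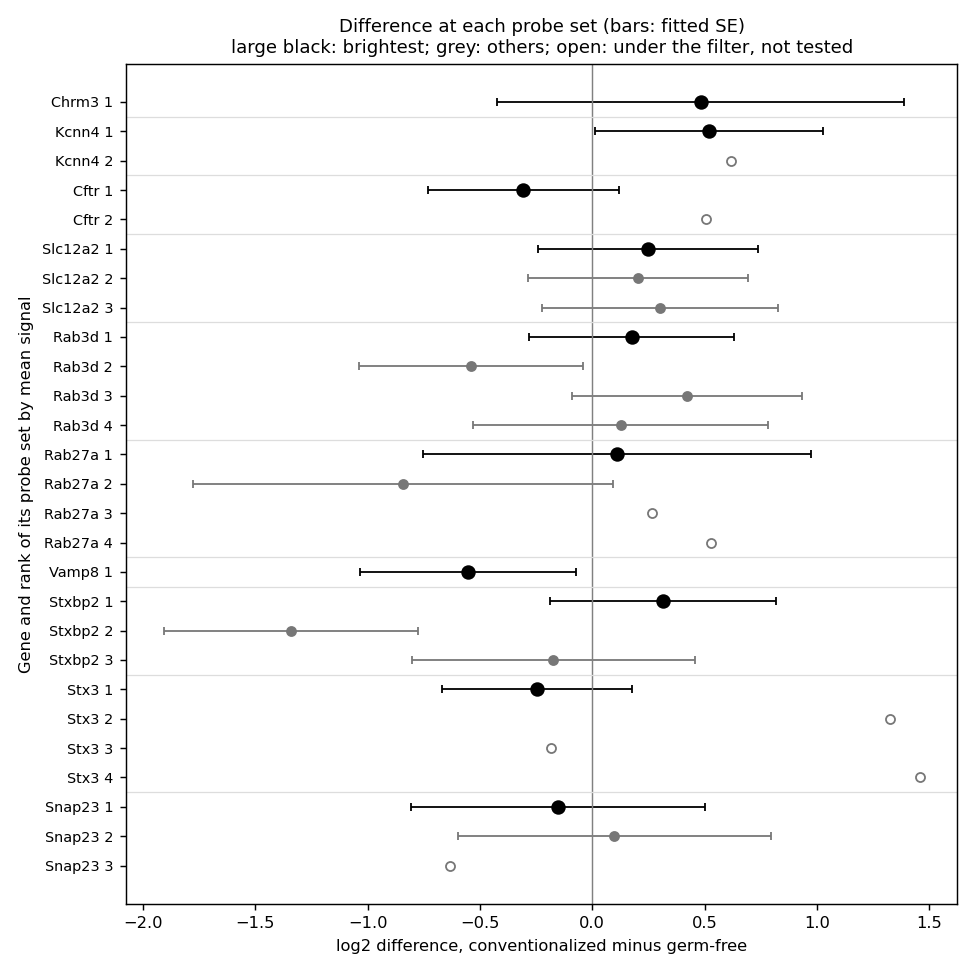
Log2 difference (conventionalized minus germ-free, x axis) at each of the 27 probe sets, ordered by gene and by mean signal within gene; large black points are the brightest probe sets, grey points other tested ones with the fitted SE as bars, and open points the 8 under the filter, which have no SE. Tested values run from -1.34 for the second Stxbp2 probe set to 0.52 for Kcnn4, and the tested probe sets of Rab3d, Rab27a, Stxbp2 and Snap23 fall on both sides of 0, as do those of Cftr and Stx3 when the ones under the filter are counted.

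The intervals show what these arrays could resolve. Among the brightest probe sets the fitted SE ran from 0.42 for Stx3 and Cftr to 0.91 for Chrm3, and each of the 10 intervals included 0. The interval reached a log2 of 1 in one direction or the other for all 10 genes, so a 2-fold difference between the pools lies inside the interval of each. The p-values that missed the threshold do not show that the levels were equal.

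**Figure D3:**
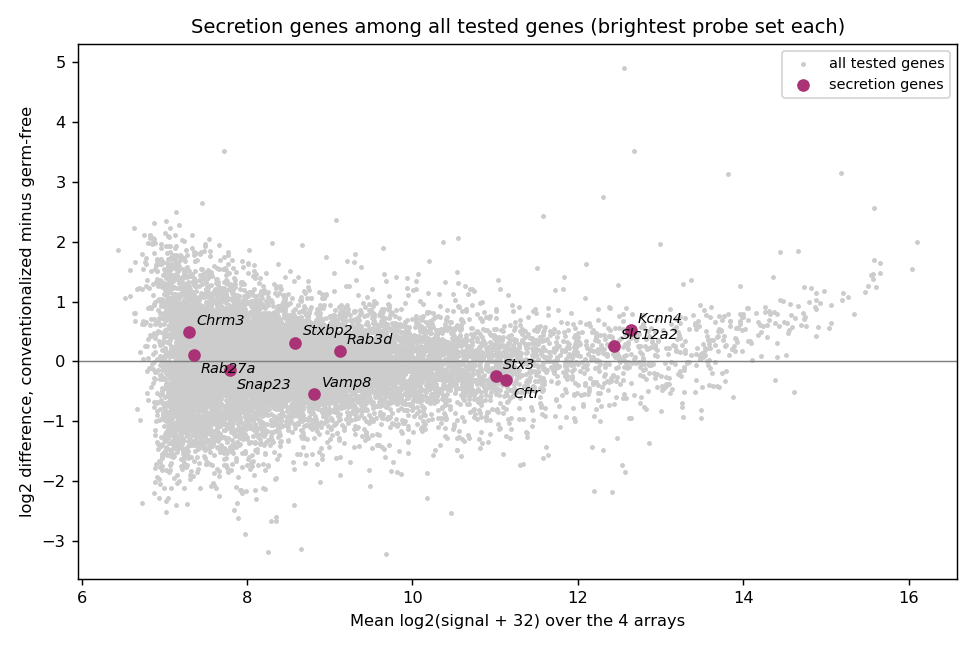
Log2 difference (y axis) against mean log2(signal + 32) over the 4 arrays (x axis) for the 12113 tested genes at their brightest probe sets (grey), with the 10 secretion genes in colour. The 10 genes lie between -0.56 and 0.52, within the cloud of other genes of like signal.

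The other genes of the pathway were taken from 5 lists, and none of their tested members was called. Over the whole array 0.355% of 12113 tested genes were called, so this count is near the background. In the list of calcium and cyclic AMP signals, 33 of 42 genes were tested, with 10 above 0 and 23 below 0. The median difference was -0.18, beside 0.00 for all tested genes. The list also holds receptors and adaptors for microbial or immune signals, and those tested enter its counts and median. Prkcd, a protein kinase C activated by diacylglycerol, read 527 and 381 in germ-free against 144 and 178 in conventionalized cells, a difference of -1.32 ± 0.55 (limma adjusted p = 0.703). A second tested Prkcd probe set read 289 and 228 against 403 and 44.7, with overlap and a difference of -0.66 ± 0.64. Vipr1, a receptor for the secretory neuropeptide VIP, differed by -1.07 ± 0.54 (-0.46 without conventionalized replicate 2 and -1.68 without conventionalized replicate 1), and Gna14, a Gq family subunit, by -0.88 ± 0.97. Their other probe sets, under the filter, differed by 0.04 for Vipr1 and by 0.25 and -0.85 for Gna14. Orai2, a calcium entry channel, lay higher, at 144 and 68.4 against 169 and 449.5 (1.23 ± 0.70, not passing), but its second probe set was under the filter and differed by -0.20. Orai2 and Gna14 passed the filter through one group alone. Receptors and adaptors for microbial or immune signals did not pass the test: Tlr3 at -0.09, Tlr5 at 0.55, Myd88 at 0.38, Ticam1 at -0.19, Ifngr1 at -0.18 and Ifngr2 at -0.19. Tlr9 and Tlr4 lay under the filter. These 8, with Chrm1, Kcnn1 and Kcnn3 above, were named after their values were seen. Leaving out 1 array moved the list median from -0.31 without conventionalized replicate 1 to -0.09 without conventionalized replicate 2, and with germ-free replicate 1 or 2 left out it was -0.28 or -0.10.

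Ion and water transport genes lay mostly below 0 and none passed. Of 52 genes 37 were tested, with 7 above 0, 30 below 0 and a median of -0.23. That median was -0.06 without conventionalized replicate 1 and -0.36 without germ-free replicate 1. Ano6, a calcium-activated scramblase and ion channel, read 5477 and 10399.9 in germ-free against 2229.5 and 3453 in conventionalized cells, without overlap. Its difference of -1.43 ± 0.47 did not pass (limma adjusted p = 0.26), and its second probe set differed by -0.83 ± 0.42; without germ-free replicate 1 the first was called, at -1.89 (limma adjusted p = 0.049), and without germ-free replicate 2 it was -0.97 (limma adjusted p = 1). Clca1, a secreted protein of goblet cells that modulates chloride currents, read 2223 and 3424 against 850 and 1438, a difference of -1.29 ± 0.42 (limma adjusted p = 0.237), and a dimmer probe set differed by -0.17. Kcnj15, an inward rectifier potassium channel, differed by 1.90 ± 1.20, from 64.1 and 11.2 to 125 and 337, with 1 value under the pseudocount of 32. It passed the filter through the conventionalized group alone, and its 2 other probe sets, under the filter, differed by 0.02 and 0.29. Some genes that accompany Cftr and Slc12a2 in textbook chloride secretion, named next, differed by -0.75 to 0.17. Of the basolateral potassium channel pair Kcne3 stood at -0.04 and Kcnq1 at -0.53 ± 0.51, and of the sodium pump subunits Atp1b1 at -0.04 and Atp1b3 at -0.75 ± 0.48. The kinases upstream of the cotransporter stood at 0.06 for Wnk1, 0.17 for Wnk4, -0.57 ± 0.86 for Stk39 and -0.57 ± 0.51 for Oxsr1. These last genes, from Kcne3 on, were named after their values were seen.

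Among other SNARE and Sec1/Munc18 proteins 24 of 36 genes were tested, with 7 above 0, 17 below 0 and a median of -0.36 (-0.20 without germ-free replicate 2, -0.23 without conventionalized replicate 2). Vamp2, a vesicle SNARE of neuroendocrine and exocrine granules, read 257 and 174 in germ-free against 38.1 and 36.1 in conventionalized cells, a difference of -1.82 ± 1.14 (limma adjusted p = 0.999). It passed the filter through the germ-free group alone. Stxbp3, a relative of Stxbp2 that works with Stx4a, read 1186 and 846 against 558.5 and 215 at an _x_at probe set, a difference of -1.44 ± 0.45 (limma adjusted p = 0.183). It was called in the brightest 25% of probe sets (limma adjusted p = 0.044) and without conventionalized replicate 1 (-2.07, limma adjusted p = 0.0128), but without conventionalized replicate 2 it was -0.81 (limma adjusted p = 1). Its second probe set differed by -0.76 ± 0.48. Stx6, a syntaxin of the trans-Golgi network, differed by -1.26 ± 0.44 at an _x_at probe set, while 2 other tested ones gave -0.12 and 0.18. Stx1a, a syntaxin of neurons and endocrine cells, differed by 1.21 ± 0.64 at an _x_at probe set. Its other probe set, under the filter, differed by -0.51 with overlap. The other relatives of the fusion genes were nearer to 0, with Vamp3 at -0.27, Vamp7 at -0.41 and Stx4a at -0.29, apart from Snap29 at -1.53 ± 0.68, whose conventionalized replicate 2 read 19.2.

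Rab proteins, their effectors and tethers were balanced about 0. Of 63 genes 47 were tested, with 23 above 0, 24 below 0 and a median of -0.01. Anxa13, an annexin of intestinal epithelium involved in apical membrane traffic, came nearest to the threshold of any gene in the 5 lists. It read 4483 and 6357.5 in germ-free against 1651 and 1791.5 in conventionalized cells, without overlap, a difference of -1.62 ± 0.44 (limma adjusted p = 0.0597), and with quantile normalization it was called (-1.65, limma adjusted p = 0.0353). Over all its alternatives the adjusted p ran from 0.00204 to 1. Rab3a, the neuronal relative of Rab3d, read 972 and 718 against 1805 and 1898, a difference of 1.12 ± 0.42 (limma adjusted p = 0.482), at an _x_at probe set; its other probe set was under the filter and differed by -0.17. Syt7, a calcium sensor for exocytosis, differed by 1.02 ± 0.50 at one probe set and by -0.08 and 0.13 at 2 others that were tested. Rph3a, an effector of Rab3 proteins, differed by -1.37 ± 1.10 and passed the filter through the germ-free group alone, and Rab26, a granule GTPase of exocrine cells named after its values were seen, lay under the filter on all 4 arrays.

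In the list of granule formation, 17 of 19 genes were tested, with 10 above 0, 7 below 0 and a median of 0.05. Vps13b, a Golgi protein, read 421 and 503 in germ-free against 797.5 and 917 in conventionalized cells (0.85 ± 0.44, limma adjusted p = 0.989), and Hps1, a subunit of a complex for lysosome-related organelles, differed by 0.56 ± 0.47. The other Vps13b probe sets, under the filter, differed by -0.98 and -0.43 with overlap. That of Hps1 is an _x_at probe set, and its other tested ones gave 0.06 and 0.14 with overlap. Xbp1 read 7245 and 10271 in germ-free against 12843 and 12216 in conventionalized cells, without overlap (0.54 ± 0.58, limma adjusted p = 0.999). Its other tested probe sets differed by -0.07, 0.28 and 0.81. Bhlha15, the exocrine maturation factor also called Mist1 and named after its values were seen, read 627 and 690.5 against 665 and 312. Paneth markers had a median of 1.84 over 14 tested genes, 13 of them above 0 and 2 called higher. Goblet cell markers had a median of 0.42 over 14 tested, with 9 above 0, 5 below 0 and 1, Retnlb, called higher. Enterocyte markers had a median of -0.51 over 20 tested, 15 below 0 and 2 called lower. Smooth muscle markers had a median of -0.28 over 7 tested, 5 below 0 and none called. Enteroendocrine markers had a median of -0.63 over 15 tested, 13 below 0 and none called (5 at an unadjusted p under 0.05 in limma), and plasma and B cell markers 0.69 over 6 tested, with Igha called higher. Beside these counts, 0.355% of all tested genes were called in limma, and 5.13% of tested probe sets had an unadjusted p under 0.05. Some genes, such as Chga, Chgb, Clca1 and Guca2a, stand in both a pathway list and a marker list, so these lists are not separate sets. The part of these marker shifts in the list medians and in the values of the 10 genes was not tested.

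**Figure D4:**
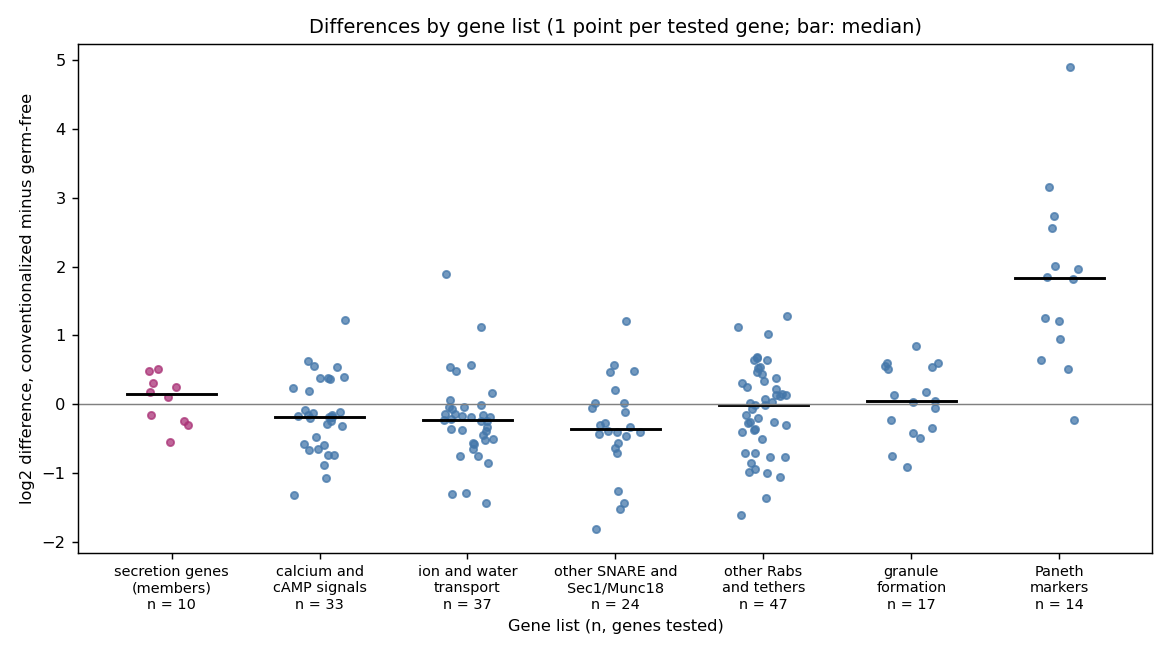
Log2 difference (conventionalized minus germ-free) of each tested gene in the 10 secretion genes, the 5 pathway lists and the Paneth markers; each point is 1 gene at its brightest probe set and the bar is the median. The 10 secretion genes have a median of 0.14, the 5 pathway lists medians from -0.36 to 0.05, and the Paneth markers a median of 1.84.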

How the data were processed

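The authors deposited linear intensity values, 1 for each probe set on each array. Their mean, trimmed by 2% at either end, was the same on all 4 arrays, so they were taken as scaled and used unaltered. The software behind these values is not given in the sources used here, and the arrays are of the type Mouse430_2, per the file headers. Intensities became log2(intensity + 32), so changes of dim probe sets are understated. After 64 control probe sets were left out, 22491 with a mean signal above 113.9 were tested with limma 3.58.1 in R 4.3.3 (lmFit, eBayes with a variance trend), with Benjamini-Hochberg adjustment over all of them at 0.05. This called 27 higher and 48 lower; with median centring the split was 3 and 19. The prior degrees of freedom were infinite beside 2 residual, so SEs and 95% intervals are those of probe sets of like signal. The 4 arrays allow 3 splits, so no permutation p could go below 0.333. The fit was tested on simulated data.

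Symbols came from the platform annotation of 2016, and 34754 of the 34958 probe sets naming 1 gene found their identifier in a RefSeq gene table (assembly GRCm38.p6). The members and lists were chosen with earlier results of these data known. Named by rule were the 10 members, their close paralogs, and up to 4 genes per list. Within a list these were called genes, then the largest differences whose groups do not overlap. Further genes were named after their values were seen, as stated beside them, and some cell type markers for their signal or call. Alternatives were a pseudocount of 8 or 128, no filter or one for the brightest 25%, median centring, quantile normalization, no variance trend, a replicate block, other probe sets, and leaving out each array. Promoter sequences and genome coordinates were not used here.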

Additional observations from a re-analysis of the deposited data

How the results depend on the processing

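Of 135 values of the 10 genes under the alternatives, 0 were called and 124 kept their sign. Of the 11 changes of sign, 8 came with 1 array left out and 3 with the mean over all probe sets of a gene, which gave 0.10 for Cftr, -0.40 for Stxbp2 and 0.59 for Stx3. The ranges over the 4 fits with 1 array left out were -0.16 to 1.13 for Chrm3, -1.01 to 0.39 for Cftr, -0.084 to 0.58 for Slc12a2, -0.062 to 0.41 for Rab3d, -0.13 to 0.35 for Rab27a, -0.61 to 0.12 for Stx3 and -0.65 to 0.34 for Snap23. Kcnn4, Vamp8 and Stxbp2, whose groups did not overlap, keep their sign there by construction, at 0.22 to 0.83, -0.63 to -0.49 and 0.14 to 0.49. Over all alternatives the median of the 10 genes lay between 0.017 and 0.30. With quantile normalization the array-wide calls were 14 higher and 19 lower, with median centring 3 and 19 (and the median of all probe sets tested moved to -0.10), and without the variance trend 0 and 0, with 975 at an unadjusted p under 0.05. With 1 array left out, the calls ran from 14 to 34 higher and from 7 to 181 lower: 24 lower without germ-free replicate 1, 7 lower without germ-free replicate 2, 181 lower without conventionalized replicate 1, and 14 higher without conventionalized replicate 2. On the log2 scale, over the tested probe sets, conventionalized replicate 2 had a Pearson r of 0.754 to 0.779 with the other arrays. It was 0.869 between the germ-free duplicates and 0.89 between germ-free replicate 2 and conventionalized replicate 1. The cause of the uneven calls was not tested. With the replicate number as a block the calls were 13 and 17; same-numbered arrays deviated in opposite ways (correlation of deviations -0.13), and a crossed pairing, chosen after seeing the data, gave 71 and 157. Neither pairing gave a call among the 10 genes, but the crossed one called Anxa13 (limma adjusted p = 0.00204), Stxbp3 (0.0167), Clca1 (0.0181) and Ano6 (0.0295), which the replicate block did not. Dim signal limits Chrm3, Rab27a and Snap23 most.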
